A study of Mus musculus with 12 samples.

Results

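MHC class II antigen presentation was followed through 7 genes: H2-Aa, H2-Ab1 and H2-Eb1, which encode chains of the surface molecules, Cd74, H2-DMa and H2-DMb1, which serve their loading, and Ciita, their transcriptional coactivator. The genes were chosen by symbol, and each was represented by the probe set annotated to that symbol alone with the highest mean signal over the 12 arrays. Of the 7 genes, 6 had a probe set of their own, among 18194 genes that had one on the array, and 5 of them were among the 8505 genes that entered the tests. H2-DMb1 had no probe set of its own, since both probe sets that carry its symbol are shared with H2-DMb2, and its level is not given.

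The arrays were hybridised with RNA from the whole pancreas of 8-week-old mice, 3 mice in each of 4 groups. C57BL6/J mice (Jackson, here J) with chronic pancreatitis induced by cerulein and C57BL6/NHsd mice (Harlan, here NHsd) with the same treatment were set against saline-injected C57BL6/J mice and saline-injected C57BL6/NHsd mice. Cerulein is a peptide that stimulates the exocrine pancreas, and repeated injection of it is a standard way to induce pancreatitis in mice. All mice were inbred C57BL6 animals with no engineered allele named. The sex is given, as female, for the saline mice only, and the dose and schedule of cerulein are not given in the sources used here. The design asks how pancreatitis changes expression and whether the 2 substrains differ in that change.

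MHC class II molecules present peptides from endocytosed proteins to CD4+ T cells. An alpha and a beta chain assemble with the invariant chain, encoded by Cd74, which occupies the peptide groove and directs the complex to endosomes, where proteases remove it and the DM heterodimer exchanges its last fragment for peptide. Expression is largest in professional antigen-presenting cells (dendritic cells, B cells and macrophages), can be induced in other cells by interferon gamma, and depends on Ciita, which has no DNA-binding domain of its own and is held at class II promoters by RFX and NF-Y bound to elements called the X and Y boxes.

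RefSeq promoters (GRCm38.p6) were searched for letters of the X and Y boxes in H2-Aa, H2-Eb1, H2-DMa and H2-DMb1; the promoter of Cd74 was not analysed here. H2-Aa lies at chr17:34282744-34287823 on the minus strand, H2-Ab1 at chr17:34263227-34269418, H2-Eb1 at chr17:34305867-34316674, H2-DMa at chr17:34119693-34139101 and H2-DMb1 at chr17:34153191-34160229, within one stretch of the chromosome. The 150 bases before the annotated start are shown, 5′ to 3′ on the strand of the gene, for the 3 members whose windows held both elements in one arrangement, with an X box motif (GNAACT) and the Y box (CTGATTGG, or its core ATTGG) in capitals.
H2-Aa (chr17:34287824-34287973, minus strand): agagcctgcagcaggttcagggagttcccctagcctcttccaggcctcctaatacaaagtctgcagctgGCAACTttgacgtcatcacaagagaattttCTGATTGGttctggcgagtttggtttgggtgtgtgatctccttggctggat
H2-Eb1 (chr17:34305717-34305866, plus strand): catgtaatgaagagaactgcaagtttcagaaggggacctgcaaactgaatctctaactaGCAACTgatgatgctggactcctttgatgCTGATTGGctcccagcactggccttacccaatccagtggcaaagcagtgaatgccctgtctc
H2-DMb1 (chr17:34153041-34153190, plus strand): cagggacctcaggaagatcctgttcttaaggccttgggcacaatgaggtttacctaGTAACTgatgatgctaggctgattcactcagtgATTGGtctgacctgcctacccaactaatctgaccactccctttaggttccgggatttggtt

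In H2-Aa and H2-DMb1 the first base of the Y box core lay 33 bases after the first base of the X box motif, and in H2-Eb1 32 bases after it. Counted back from the start, with the base before it as -1, the X box motif began at -81 in H2-Aa, -91 in H2-Eb1 and -94 in H2-DMb1, and the Y box core at -48, -59 and -61. Each motif was searched on both strands in the 250 bases before the start of all 32851 promoters in the table. GNAACT was held by 37.3% of them. The Y box core ATTGG was held by 33.8%, and CTGATTGG, which contains it, by 3.83%. The X box motif AGNAAC, which overlaps the one in capitals was held by 42.3% of promoters, H2-Eb1 and H2-DMb1 among them but not H2-Aa. The wider AGNNAC was held by 85.6%. GNAACT followed on the same strand by ATTGG at a distance of 32 or 33 bases was present in 29 of the 32851 promoters (0.0883%); this pattern was written down after the 3 sequences had been seen, so the share describes how rare the arrangement is and tests nothing. H2-Eb1 held a further Y box core on the other strand at -35. GNAACT was also matched on the other strand at -128 to -123 in H2-Aa and at -129 to -124 in H2-Eb1. These further matches are not in capitals. H2-DMa has 2 annotated starts in the table, and neither window held GNAACT or CTGATTGG, while one held the Y box core at -198, which says only which letters are in those windows. The last 150 bases of these windows are chr17:34122682-34122831 and chr17:34125368-34125517. Both lie inside the span of H2-DMa given above, which begins at 34119693. Bases before other starts of H2-DMa were not searched. H2-Ab1 and Ciita have no entry in the table used. A match to a motif is a description of the sequence, and no binding was measured here.

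In the deposited values H2-Aa, H2-Ab1, H2-Eb1 and Cd74 were 3.54- to 4.37-fold higher in pancreas after cerulein than after saline. With all arrays set to equal medians their changes were smaller, at 1.24 to 1.55 log2 units. Each signal below is the authors' log2 value of one probe set on one array, and each change is a difference of log2 values with its standard error (SE) from a limma model over all 12 arrays, with p-values adjusted by Benjamini-Hochberg over the 8505 tested genes. H2-Aa, H2-Ab1, H2-Eb1 and Cd74 rose in both substrains, and H2-DMa passed the test in J and in the mean of both. Of the 5 members tested, 5 rose in the mean of both substrains at adjusted p below 0.05. The background was high: 69.4% of all tested genes passed that threshold, 59.4% as higher and 10.1% as lower, so the members' count by itself does not set them apart. H2-DMa entered the test only through arrays of cerulein-treated mice, so its count carries no weight. In RNA of a whole tissue, a change in the number of cells of a type and a change in RNA per cell cannot be told apart.

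H2-Aa encodes the alpha chain of the I-A molecule. Its signal was 11.04, 10.93 and 10.75 in J cerulein mice 1 to 3 and 10.18, 10.24 and 10.92 in NHsd cerulein mice 1 to 3, against 9.29, 8.64 and 8.80 in J saline mice and 9.27, 8.80 and 8.31 in NHsd saline mice. The lowest cerulein array thus lay above the highest saline array, and among the cerulein arrays NHsd mouse 3 stood with the J mice while NHsd mice 1 and 2 were lower. The mean was 10.68 ± 0.37 in cerulein mice and 8.85 ± 0.38 in saline mice (SD, n = 6 each), a log2 difference of 1.82 (SE 0.18, 95% confidence interval 1.42 to 2.22), or 3.54-fold, with adjusted p = 3.22e-06 by limma.

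H2-Ab1 encodes the beta chain that pairs with it. The signal was 7.61, 8.03 and 7.32 in J cerulein mice and 7.04, 7.26 and 7.90 in NHsd cerulein mice, against 5.61, 5.35 and 5.61 in J saline mice and 5.80, 5.46 and 5.35 in NHsd saline mice. All 6 cerulein arrays were above all 6 saline arrays, and the saline arrays lay close together, at 5.53 ± 0.17 against 7.53 ± 0.39 after cerulein (SD, n = 6 each). The log2 difference of 2.00 (SE 0.17, interval 1.63 to 2.36, adjusted p = 7.2e-07 by limma) is 3.99-fold.

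H2-Eb1 encodes the beta chain of the other class II molecule, I-E. It had a signal of 9.24, 9.45 and 8.91 in J cerulein mice and 8.31, 8.42 and 9.36 in NHsd cerulein mice, against 7.28, 6.95 and 6.97 in J saline mice and 7.37, 6.92 and 6.60 in NHsd saline mice. The groups did not overlap, and NHsd cerulein mouse 3 again stood well above the other two NHsd cerulein mice. The difference was 1.93 log2 units (SE 0.19, interval 1.51 to 2.35), 3.81-fold, with adjusted p = 3.16e-06 by limma. C57BL6 mice carry the b haplotype, in which the partner gene H2-Ea has lost its promoter and no alpha chain of I-E is made. The 3 probe sets of H2-Ea reached at most 3.37 on any array, below the value of log2 4 that was taken as the limit of detection.

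Cd74 (chr18:60803849-60812652) encodes the invariant chain and is also a receptor for the cytokine MIF. Its signal was 7.41, 8.08 and 7.73 in J cerulein mice and 7.33, 7.75 and 8.53 in NHsd cerulein mice, against 6.16, 5.29 and 5.57 in J saline mice and 5.98, 5.37 and 5.71 in NHsd saline mice. Cerulein arrays were again all above saline arrays, with NHsd mouse 3 the highest and J saline mouse 1 the highest of the controls. The log2 difference of 2.13 (SE 0.22, interval 1.65 to 2.60, adjusted p = 3.9e-06 by limma) is 4.37-fold and was the highest estimate among the members, although its interval overlaps those of the I-A and I-E genes.

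H2-DMa encodes the alpha chain of the DM peptide exchanger and was close to the detection limit. Its signal was 5.41, 4.91 and 3.84 in J cerulein mice and 4.43, 3.84 and 4.54 in NHsd cerulein mice, against 3.72, 3.47 and 2.81 in J saline mice and 3.73, 2.85 and 3.68 in NHsd saline mice. Only 4 arrays, all from cerulein mice, were above log2 4, and the gap between the lowest cerulein array at 3.84 and the highest saline array at 3.73 was small. Against that limit the cerulein mean was at least 1.41-fold higher. The fitted difference was 1.12 log2 units (SE 0.27, adjusted p = 0.0029 by limma), but it fell to 0.53 (adjusted p = 0.0715) when all arrays were set to equal medians and to 0.44 (adjusted p = 0.162) after quantile normalisation.

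Ciita (chr16:10480014-10531064), the coactivator on which the others depend, was not detected in any group. Its representative probe set had a value of 2.67 on all 12 arrays, and its other 2 probe sets had 2.39, the lowest value in the table, on all 12. These probe sets therefore give no information on a difference between groups, and they bound the signal only as below log2 4.

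**Figure D1:**
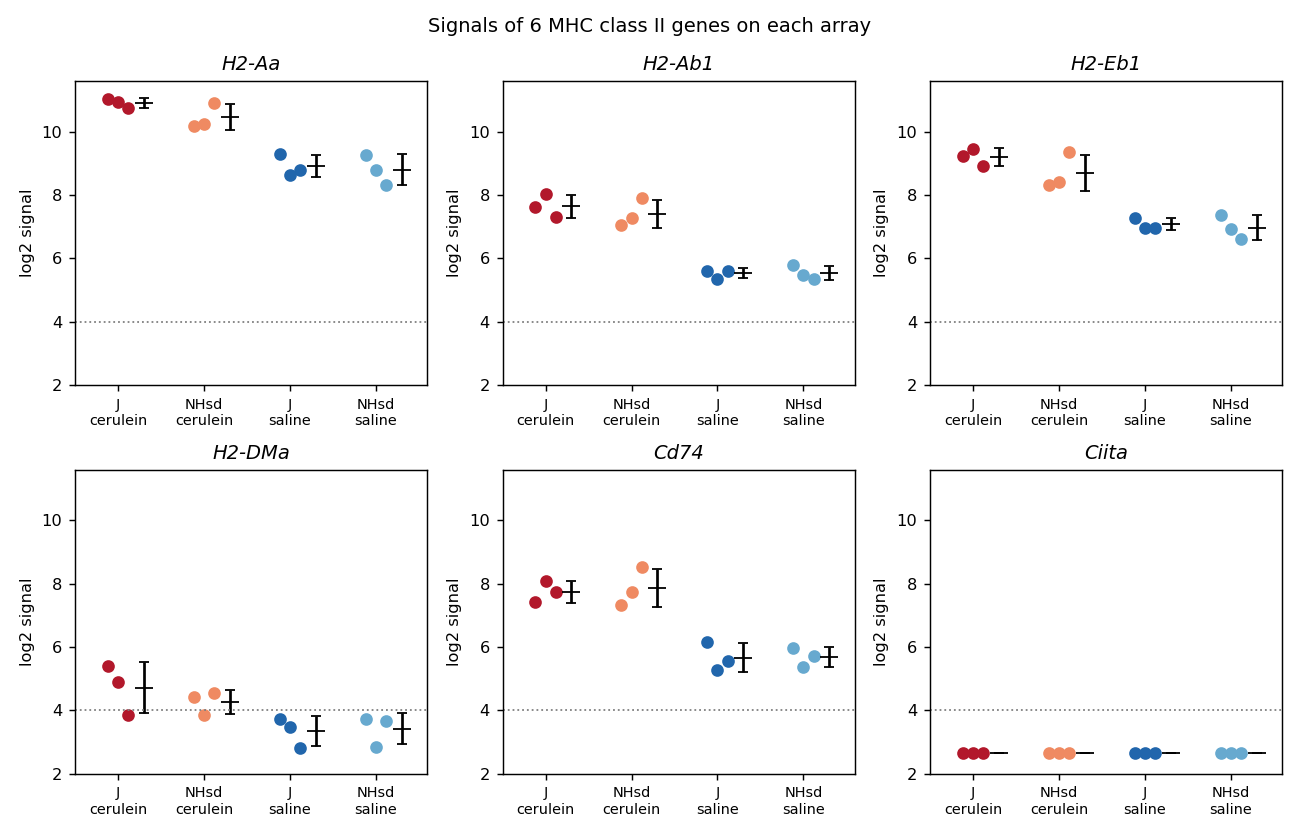
Log2 signal (vertical axis) of the 6 class II genes with a probe set of their own, 1 point per array in the 4 groups, with the group mean and SD (n = 3) in black and the detection limit of log2 4 as a dotted line. The 6 cerulein arrays lie above the 6 saline arrays for 5 genes, by a narrow margin for H2-DMa (3.84 against 3.73), and Ciita stays at 2.67 on every array.

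Cerulein and saline arrays did not overlap for the 4 tested members other than H2-DMa, which was also true, as higher after cerulein, of 40.0% of all tested genes. H2-DMa entered the test only through cerulein arrays. Its separation, 3.84 against 3.73, lay below log2 4 and carries no weight. Relative to the other genes the I-A and I-E genes and Cd74 nevertheless changed by large amounts. The median tested gene was itself 0.49 log2 units higher after cerulein, and above that median H2-Aa stood at 1.34, H2-Ab1 at 1.51, H2-Eb1 at 1.45, Cd74 at 1.64 and H2-DMa at 0.63 log2 units. In the order of the 8505 changes counted from the highest, Cd74 was at place 308, H2-Ab1 at 381, H2-Eb1 at 424, H2-Aa at 525 and H2-DMa at 1740. These 4 higher-ranked genes exceeded the change of between 93.8% and 96.4% of the tested genes.

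The scaling of the arrays changed the size of the members' changes and, for H2-DMa, the call, as given above, but not the direction of any of the 5. Control transcripts added to the samples moved with treatment: the poly-A controls averaged 7.49 ± 0.58 after cerulein and 10.2 ± 0.42 after saline, and the hybridisation controls 7.03 ± 0.14 and 8.84 ± 0.41 (SD over the arrays of a treatment). The share of probe sets above log2 4 was 30.3% ± 0.66 after cerulein and 26.7% ± 0.31 after saline. The part of these shifts in the members' changes was not tested, beyond the following alternatives. With all arrays set to equal medians, the differences were 1.24 for H2-Aa, 1.41 for H2-Ab1, 1.35 for H2-Eb1 and 1.55 for Cd74, and after quantile normalisation 1.37, 1.44, 1.44 and 1.58. Each of these remained below an adjusted p of 0.05, while the share of all genes called higher fell to 26.6% with equal medians and to 28.0% with quantile normalisation.

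Further probe sets of the same genes moved in the same direction. For H2-Aa the 3 other probe sets differed by 2.00, 1.71 and 2.08 log2 units between cerulein and saline, and for H2-Ab1 the 2 others by 1.17 and 2.32. In all of them the 6 cerulein arrays lay above the 6 saline arrays. The second probe set of H2-DMa stayed between 2.39 and 2.40 on every array, and Cd74 and H2-Eb1 have 1 probe set each. Probe sets of H2-Ab1 therefore disagreed on size, by about 1 log2 unit between the smallest and the largest change.

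In J mice taken alone, 5 of the 5 tested members rose, against a background of 55.4% of genes called and 47.8% called higher. H2-DMa had entered the test through cerulein arrays only, which leaves 4 of 4. The differences were 2.00 (SE 0.26) for H2-Aa, 2.13 (SE 0.24) for H2-Ab1, 2.13 (SE 0.28) for H2-Eb1 and 2.07 (SE 0.31) for Cd74. H2-DMa was at least 1.65-fold higher, with a fitted difference of 1.38 (SE 0.39, adjusted p = 0.00927 by limma), and its adjusted p was 0.0669 with equal medians and 0.143 after quantile normalisation. In NHsd mice 4 of the 5 rose, against 55.3% of genes called and 48.7% called higher. The differences there were 1.65 (SE 0.26) for H2-Aa, 1.86 (SE 0.24) for H2-Ab1, 1.73 (SE 0.28) for H2-Eb1 and 2.19 (SE 0.31) for Cd74. H2-DMa differed by 0.85 (SE 0.39) in NHsd mice and missed the threshold (adjusted p = 0.0795 by limma). With equal medians its difference was 0.26 (adjusted p = 0.557 by limma), and after quantile normalisation 0.19 (0.698). Without NHsd cerulein mouse 3 its adjusted p was 0.203. It passed in a fit of the NHsd arrays alone (0.0427) and in a fit without J cerulein mouse 3 (0.0359).

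The test of the substrain difference itself called none of the 5 members, and none reached an unadjusted p below 0.05 in limma. The change in J minus the change in NHsd was 0.35 log2 units for H2-Aa (95% interval -0.45 to 1.15), 0.27 for H2-Ab1 (-0.47 to 1.0), 0.40 for H2-Eb1 (-0.45 to 1.24), 0.54 for H2-DMa (-0.65 to 1.72) and -0.12 for Cd74 (-1.07 to 0.84). For H2-DMa the saline arrays of both substrains were below log2 4, so its fitted value is no measured difference of changes. The lowest adjusted p among the 5 was 0.783, and across all tested genes 0.0118% were called. The intervals reach 1.0 log2 units or more towards a larger change in J for H2-Aa, H2-Ab1, H2-Eb1 and H2-DMa and towards a larger change in NHsd for Cd74, so these arrays do not show that the substrains respond alike.

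**Figure D2:**
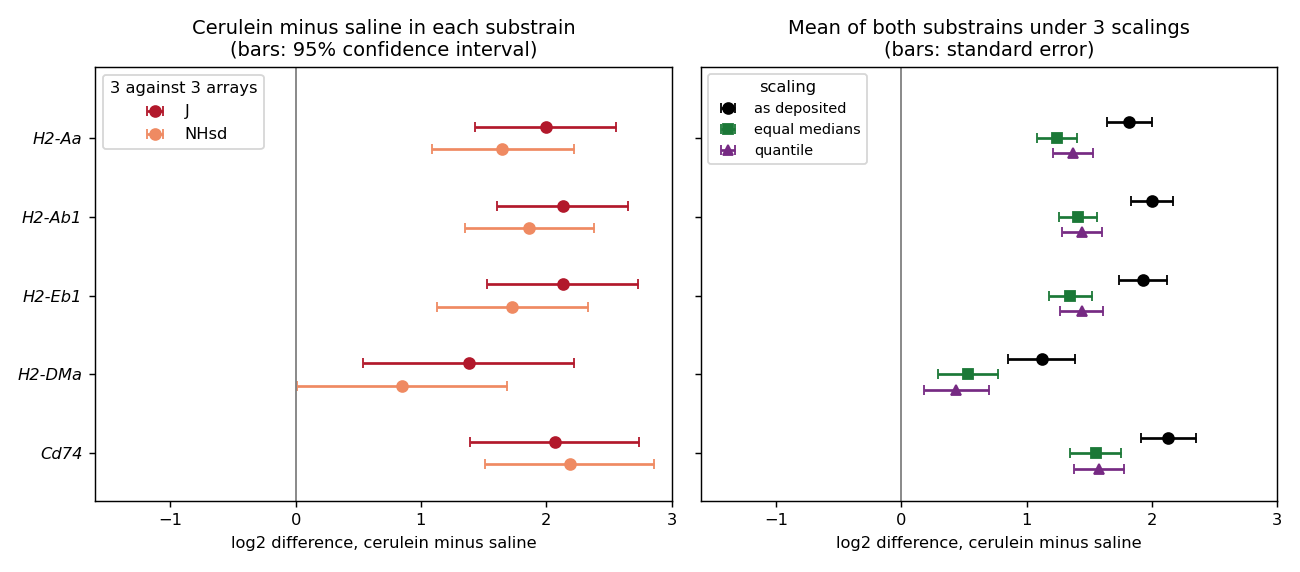
Log2 difference between cerulein and saline (horizontal axis) for the 5 tested class II genes: on the left in J and in NHsd mice with 95% confidence intervals, on the right as the mean of both substrains with standard errors for the deposited values and for 2 other scalings. The intervals of the 2 substrains overlap for every gene, and the deposited scaling gives the highest estimate of each change, 1.12 for H2-DMa and 1.82 to 2.13 for the others.

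Set directly against each other, the substrains were not distinguished by the members in either treatment. After cerulein, J minus NHsd was 0.46 (SE 0.26) for H2-Aa, 0.26 (SE 0.24) for H2-Ab1, 0.50 (SE 0.28) for H2-Eb1, 0.45 (SE 0.39) for H2-DMa and -0.13 (SE 0.31) for Cd74. None was called or reached an unadjusted p below 0.05 (lowest adjusted p = 0.587 by limma), where 0.223% of all genes were called. NHsd cerulein mouse 3 weighs on these values: without it the differences were 0.70 for H2-Aa, 0.51 for H2-Ab1, 0.83 for H2-Eb1, 0.59 for H2-DMa and 0.20 for Cd74, with a lowest adjusted p of 0.168, and 89 genes in all were called instead of 19. After saline, J minus NHsd ranged between -0.01 and 0.11 over H2-Aa, H2-Ab1, H2-Eb1 and Cd74, and H2-DMa was below log2 4 in both substrains. None of the 5 was called or had an unadjusted p below 0.05 (lowest adjusted p = 0.992 by limma), with 0.0588% of all genes called. The J and NHsd arrays overlapped for every tested member in both treatments.

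On 6 of the 12 arrays the 5 tested members lay on one side of their group means. All 5 were above their group mean in NHsd cerulein mouse 3 (by 0.51 log2 units on average), J cerulein mouse 2 (0.24), NHsd saline mouse 1 (0.35) and J saline mouse 1 (0.31), and none was above it in NHsd cerulein mouse 2 or J cerulein mouse 3. On the other 6 arrays they were mixed: in J cerulein mouse 1, for example, H2-DMa was 0.69 above its group mean and Cd74 was at -0.33. The probe sets of each array share its RNA and scaling, so these are not 5 independent readings. In J saline mouse 1 the lymph node gene Glycam1, which encodes a mucin-like ligand of L-selectin in high endothelial venules, had 6.66, while it was at 2.39 on every cerulein array, and its mean over the NHsd saline mice was 2.48. The mean log2 signal of the pan-leukocyte genes was also highest among the saline arrays in that mouse, at 5.08. Of the other lymph node genes, Madcam1, Cr2 and Fcer2a reached at most 2.62, 2.52 and 3.04 on any array. Cxcl13 lay between 3.34 and 5.86 over the saline arrays. The T and NK cell list was lowest among the saline arrays in that mouse (2.74). In the same mouse the B cell and plasma cell list mean of 4.18 was the highest of the J saline mice (3.63 to 4.18). It lay below those of the NHsd saline mice (4.29 to 4.66). The source of the Glycam1 signal was not tested. Without that array the change over both substrains was 1.92 for H2-Aa, 2.02 for H2-Ab1, 1.99 for H2-Eb1, 1.21 for H2-DMa and 2.25 for Cd74.

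The remaining class II subunits added little measurable signal. H2-Eb2, a second beta chain of I-E, was at 2.39 throughout, and H2-Oa and H2-Ob, the chains of the DO modulator of DM in B cells, reached at most 3.06 and 3.10. H2-DMb2, a duplicate of the DM beta chain gene, averaged 4.03 after cerulein and 3.57 after saline, with overlapping arrays, and was at least 1.02-fold higher against the limit. Its difference of 0.46 (SE 0.17, adjusted p = 0.0277 by limma) turned to -0.12 with equal medians and to -0.23 after quantile normalisation. The 2 DM beta chain genes are near-identical copies, so a probe set of one may take signal from the other.

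Of the 10 tested transcription factors and coactivators that act at class II promoters, 9 rose and 1 was not called (8 of 9 without Nfya, which passed the filter on low values through cerulein arrays only), with a median change of 0.68 log2 units against 0.49 over all tested genes. With equal medians, 3 remained called as higher and 1 was lower, and the counts were the same after quantile normalisation. Rfx5, the DNA-binding subunit of RFX, averaged 5.12 after cerulein and 4.01 after saline, a change of 1.11 (SE 0.19, adjusted p = 0.000227 by limma) and of 0.52 with equal medians. Nfya, a subunit of the Y box factor NF-Y, averaged 4.79 after cerulein and 3.74 after saline, at least 1.73-fold higher. Creb1, which binds beside RFX, changed by 1.21 (SE 0.24). Rfxank, the ankyrin subunit of RFX, differed by -0.25 (SE 0.13) and was not called, but it was lower with equal medians (-0.83, adjusted p = 0.000154). Rfxap and Nfyb rose by 0.37 and 0.39 as deposited but turned to -0.21 and -0.19 with equal medians and to -0.22 and -0.20 after quantile normalisation, as did the coactivator Crebbp (0.54, turning to -0.04 and -0.02).

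Among genes of interferon gamma signalling 6 were tested, of which 4 rose, none fell and 2 were not called. With equal medians 2 rose and 2 fell, and after quantile normalisation 2 rose and 1 fell. Irf8, a factor of myeloid and B cells, averaged 5.40 after cerulein and 3.63 after saline and was at least 2.65-fold higher (adjusted p = 5.07e-07 by limma); it entered the test through cerulein arrays only. Ifngr1, the ligand-binding chain of the interferon gamma receptor, changed by 1.14 (SE 0.17), and the receptor kinases Jak2 and Jak1 by 0.66 (SE 0.11) and 0.62 (SE 0.14) as deposited but by 0.08 and 0.03 with equal medians, no longer called. Irf1, which acts at a Ciita promoter, differed by -0.14 (SE 0.16) and was not called, and with equal medians it was lower, at -0.73. Irf2 was likewise not called as deposited (0.26) and was lower with equal medians (-0.33, adjusted p = 0.0438). Ifng itself and the feedback inhibitor Socs1 were at 2.39 on every array.

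The enzymes that cut antigen and invariant chain in endosomes mostly rose: 8 of 10 rose, 1 fell and 1 was not called, with a median change of 1.26. The 8 rises remained with equal medians and with quantile normalisation. Ctss, cathepsin S, the main protease of invariant chain in antigen-presenting cells, averaged 11.05 after cerulein and 7.35 after saline, a change of 3.70 (SE 0.21, adjusted p = 3.07e-08 by limma). Lgmn, an asparaginyl endopeptidase, changed by 3.20 (SE 0.18). Its saline arrays lay at 3.27 to 4.10, with a mean of 3.61 below the detection limit, so the size of that change is uncertain. Without the cerulein arrays Lgmn would not have passed the filter on low values, so its place among the 8 carries no weight. Ctsh, cathepsin H, changed by 2.58 (SE 0.14). Cst3, which encodes the cathepsin inhibitor cystatin C, fell by 0.79 on the log2 scale (adjusted p = 0.000115 by limma). Ifi30, the thiol reductase of antigen processing, averaged 8.82 after cerulein and 8.84 after saline and was not called as deposited, and with equal medians it was lower, at -0.60.

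Among genes of class II traffic and turnover 7 were tested, of which 5 rose, 1 fell and 1 was not called (median 1.24). With equal medians 5 rose and 2 fell (median 0.66), and the counts were the same after quantile normalisation. Cd82, which fell, differed by -0.29 as deposited and by -0.87 with equal medians. Marchf8 was not called as deposited (-0.22, SE 0.10) and was lower with equal medians (-0.80). Cd44, a surface receptor that signals with Cd74, changed by 3.48 (SE 0.22), Arl14ep, an adaptor of class II vesicles, by 1.50 (SE 0.21), and Mif, the ligand of Cd74, by 1.27 (SE 0.10). Marchf1, the ubiquitin ligase that removes class II molecules from the surface, stayed below the limit, at no more than 3.91. Of 10 costimulation genes only Cd83 and Icam1 were tested, and they were at least 2.55-fold and 1.36-fold higher after cerulein; both passed the filter through cerulein arrays only, so that they were tested and that they were higher is one fact. Cd80, Cd86 and Cd40, the best-known partners of class II molecules in T cell activation, reached at most 2.94, 2.70 and 2.88.

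Class I presentation moved in the same direction. All 12 tested genes of that list rose, although Psmb9 had entered the test through cerulein arrays only, which leaves 11 of 11, with a median change of 1.39 (1.18 with genes under the limit after saline set at their bound), while 7 remained called as higher with equal medians and 8 after quantile normalisation. Pdia3, a chaperone of peptide loading, changed by 2.12 (SE 0.15), B2m, the class I light chain, by 1.97 (SE 0.14) and Psmb8, an immunoproteasome subunit, by 1.90 (SE 0.21). With equal medians 1 gene was lower, Psmb10, another immunoproteasome subunit, at -0.29. The list was not tested against the class II members as a set.

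**Figure D3:**
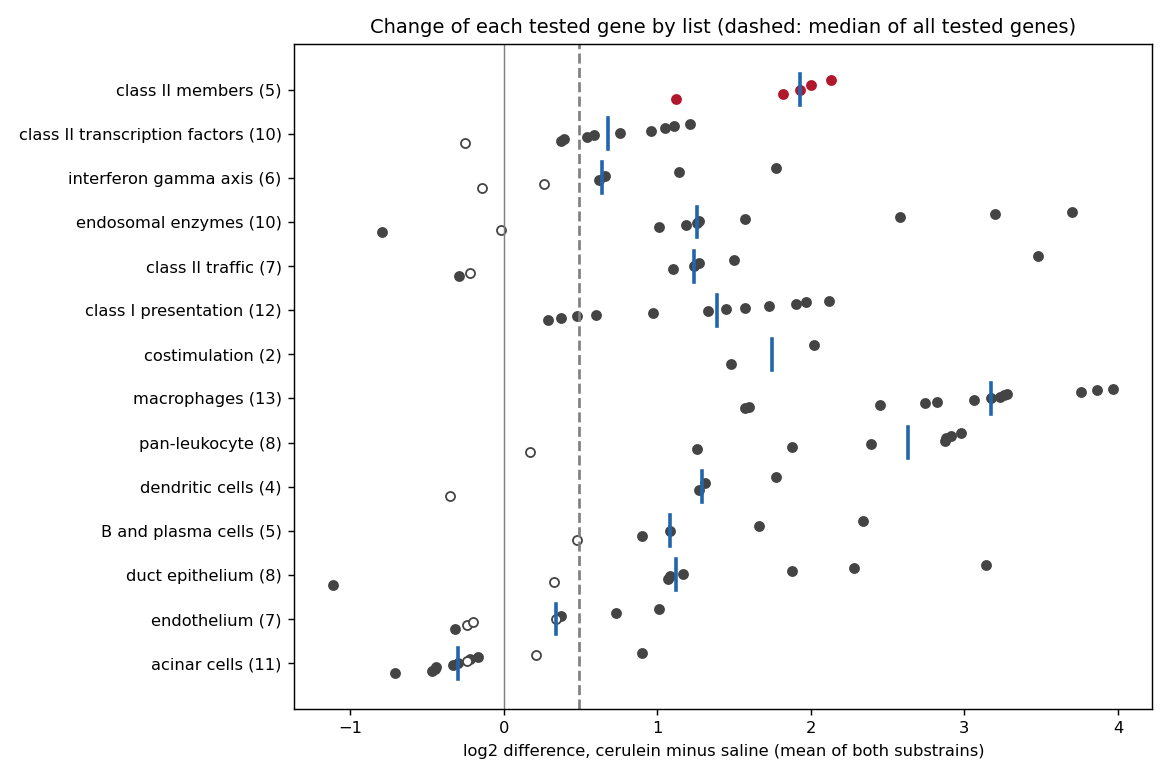
Log2 difference between cerulein and saline, as the mean of both substrains (horizontal axis), for each tested gene by list, with the number tested in brackets; filled points are called at adjusted p below 0.05, open points are not, blue bars are list medians and the dashed line is the median of all tested genes. The class II members lie between 1.12 and 2.13, right of the dashed line at 0.49, and the macrophage genes have a median of 3.17.

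Markers of antigen-presenting cells were followed beside the class II genes, and their part in the members' changes was not tested. Of the 13 tested macrophage genes 5 (Adgre1, Cd68, Cd14, Fcgr1 and Aif1) had passed the filter through cerulein arrays only, which fixed their direction. The other 8 all rose under each of the 3 scalings. Over the 13 genes the median change was 3.17 (2.66 with bounds). Tyrobp, a signalling adaptor of myeloid cells, changed by 3.97 (SE 0.30), C1qc by 3.86 (SE 0.17) and Mpeg1 by 3.76 (SE 0.21). Over the 14 macrophage genes with a probe set, the mean log2 signal lay between 6.83 and 7.57 after cerulein and between 4.05 and 4.54 after saline. Itgam, the gene among the 14 that was not tested, reached at most 2.56 on any array. Of the 8 tested pan-leukocyte genes 7 rose and 1, Itgb2, was not called (median 2.63), and Lsp1 among the 7 had passed the filter through cerulein arrays only, with list means of 6.02 to 6.75 after cerulein and 4.29 to 5.08 after saline.

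Dendritic cell and B cell genes gave a smaller or mixed picture. For dendritic cells 4 of 13 measured genes were tested, of which 3 rose (Irf8, Clec10a by 1.31 and Fscn1 by 1.27) and Zbtb46 was not called (-0.35, SE 0.21). Irf8 had passed the filter through cerulein arrays only, which fixed its direction and leaves 2 of 3 risen. With equal medians Fscn1 was no longer called (0.69, adjusted p = 0.0555 by limma), and Zbtb46 was lower with equal medians (-0.93) and after quantile normalisation (-0.92). The defining markers Itgax, Flt3, Xcr1 and Ccr7 reached at most 3.04. List means were 3.53 to 3.75 after cerulein and 3.16 to 3.44 after saline. For B cells and plasma cells 5 of 12 were tested and 4 rose, 2 of them also with equal medians: Sdc1 by 2.34 (SE 0.13), which duct and other epithelial cells express as well, and Ighm by 1.66 (SE 0.43). Jchain changed by 1.08 (SE 0.35) and the B cell marker Ms4a1, which passed the filter through cerulein arrays only, was at least 1.02-fold higher, neither of them called with equal medians, and Mzb1 was not called (0.48 as deposited, turning to -0.10 with equal medians and after quantile normalisation). Pax5, Cd79a and Blk stayed at or below 2.88.

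Between the substrains, the mean log2 signal of the B cell and plasma cell list lay at 4.45 to 4.57 in J and 4.84 to 5.23 in NHsd after cerulein, and at 3.63 to 4.18 in J and 4.29 to 4.66 in NHsd after saline. None of its 5 tested genes was called between J and NHsd after cerulein (lowest adjusted p = 0.176 by limma, 4 with an unadjusted p below 0.05), and J minus NHsd was -2.52 for Ighm and 0.41 for Sdc1. The mean of the 5 class II members was 7.71 to 8.28 in J and 7.46 to 8.25 in NHsd after cerulein, and that of the macrophage genes 7.05 to 7.57 and 6.83 to 7.02. These ranges are descriptions, and no difference between substrains was tested for a list as a whole. The T and NK cell list stayed near the floor, at means of 2.56 to 2.63 after cerulein and 2.74 to 2.96 after saline, with Cd3e at 2.39 on every array, and its 1 tested gene, Zap70, which passed the filter through saline arrays only, was at least 1.51-fold lower after cerulein.

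**Figure D4:**
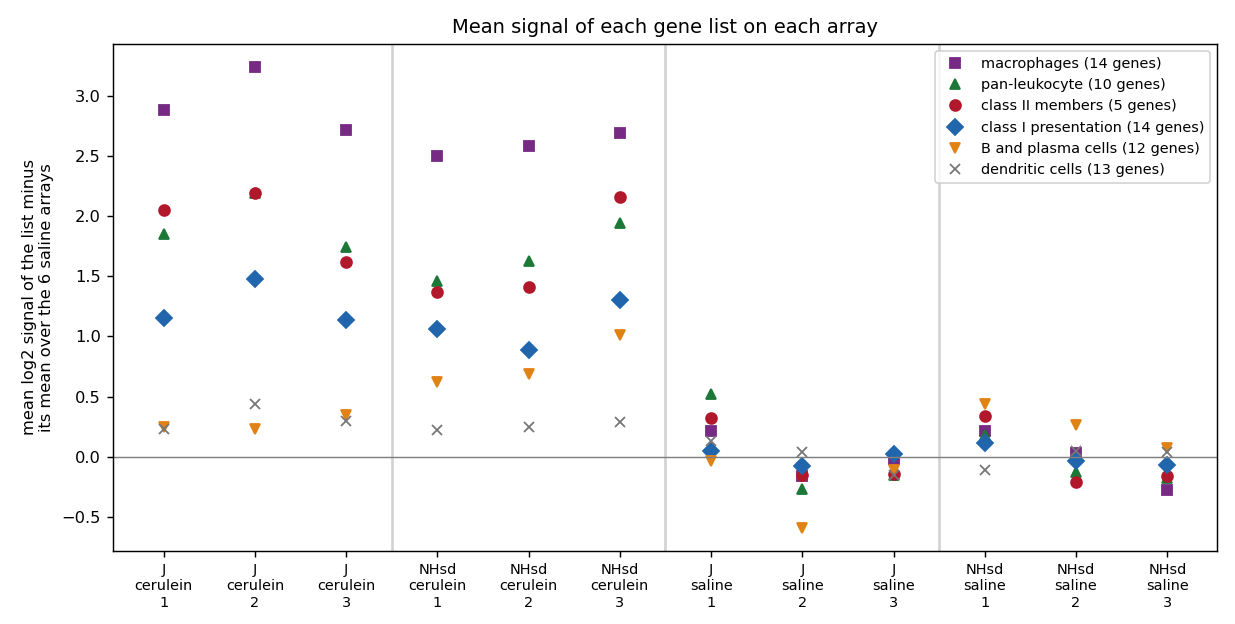
Mean log2 signal of each gene list on each of the 12 arrays, minus the list's mean over the 6 saline arrays (vertical axis), with the groups side by side and 1 symbol per list. The class II members and the pan-leukocyte and macrophage genes are above their saline arrays on each cerulein array, with macrophage list means of 6.83 to 7.57 after cerulein and 4.05 to 4.54 after saline before the subtraction.

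Other cell types of the pancreas moved in several directions. Of 8 tested duct genes 6 rose, Cldn4 among them through the filter on cerulein arrays only, and 1, Muc1, fell by 1.11 on the log2 scale, and of 7 tested endothelial genes 3 rose (Vwf likewise) and 1 fell, with none called as higher under equal medians, where Esam (0.37 as deposited) turned to -0.21. Of 11 acinar genes 8 fell, 1 rose and 2 were not called as deposited, while 10 fell and 0 rose with equal medians, and 4 fell and 0 rose after quantile normalisation. Neither of 2 tested neutrophil genes, S100a8 and S100a9, was called in the mean of both substrains (lowest adjusted p = 0.0833 by limma, none with an unadjusted p below 0.05). S100a8 was called in J (2.99, adjusted p = 0.038 by limma) and not in NHsd (0.27), and the difference between these changes was not called (adjusted p = 0.721 by limma). Cxcl13, from the list of lymph node stroma, rose by 1.33 (SE 0.29).

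The genes whose profile over the 12 arrays lay nearest to the mean profile of the 5 tested members, each centred on its own mean, were Plbd1 (mean absolute difference 0.13 log2 units), Srsf10, Srgn, Psma1 and B2m (0.15 each), among 8500 genes compared. The members themselves lay at 0.13 (H2-Aa), 0.14 (H2-Ab1), 0.12 (H2-Eb1), 0.25 (Cd74) and 0.41 (H2-DMa) from that mean, so Plbd1 was as near as H2-Aa. Nearest to single members were Ptpn2 for H2-Aa and Rpa2 for H2-Ab1 (0.14 each), Trim59 for H2-Eb1 (0.13), Rrm1 for Cd74 (0.17) and Lyar for H2-DMa (0.20). Their own changes between cerulein and saline were 1.68 for Plbd1, 1.64 for Srsf10, 1.52 for Srgn, 1.64 for Psma1 and 1.97 for B2m. Nearness on this measure says nothing of shared function.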

How the data were processed

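Affymetrix 3′ expression arrays of 12 mouse pancreata were used, 3 per group, with groups taken from the labels. The authors deposited log2 values for 45101 probe sets, normalised with GCRMA in Partek per the submitters' processing notes; versions, annotation and background settings are not given in the sources used here. Values ran between 2.39 and 16.4. Platform annotation gave 1 symbol for 34958 probe sets, several for 932 and none for 9211. Probe sets above log2 4 on at least 3 arrays (14296) were kept, and each gene was represented by the one with the highest mean (8505 genes). limma 3.58.1 in R 4.3.3 was fitted with 1 mean per group over all 12 arrays, an intensity trend and Benjamini-Hochberg adjustment, for 6 comparisons; the steps were tested on simulated data. For a gene whose saline arrays were all below log2 4, the fold was given against that limit as "at least". The number of arrays limits precision. The labels call the replicates biological, and a shared number does not name a shared litter or batch. The members and gene lists were chosen with earlier results of these data known; all members were named, and from each list up to 3 called genes with the largest change, plus any of the regulators and cell markers. Scaling, filter, trend, probe set summary, replicate block, the arrays fitted and each left-out array were varied. Promoters came from RefSeq (GRCm38.p6), where 4 member genes searched had entries, and annotated coordinates from the same assembly.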

Additional observations from a re-analysis of the deposited data

How the results depend on the processing

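Over the alternatives, the members' change with cerulein kept its direction and side of the threshold in 92 of 94 results for the mean of both substrains, 97 of 99 in J and 97 of 99 in NHsd; all exceptions were H2-DMa. Under a limit of log2 6, which tests fewer genes, 3543 genes were called for the mean of both substrains, 2890 in J and 2955 in NHsd. Genes called for the substrain difference of the effect numbered 1, but 0 with equal medians or a limit of log2 6, 2 with quantile normalisation or without the trend, and 15 without a filter. J against NHsd after saline gave 37 genes without a filter and 0 in a fit of the groups compared alone, and after cerulein 10 and 0; the cause was not tested. With 1 array left out, the counts were 0 to 5 for the difference of the effect, 1 to 9 after saline and 5 to 89 after cerulein, the last without NHsd cerulein mouse 3.

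After each gene's group mean was taken off, correlations between same-numbered cerulein and saline mice of a substrain ran between -0.07 and 0.34. The groups hold too few arrays for these values to show whether the replicate numbers pair the mice. With the replicate number as a block, J against NHsd gave 7 genes after cerulein and 2 after saline, 5952 genes were called for cerulein against saline, and no member changed its call.

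Substrain differences after saline changed sign with the arrays used. With 1 array left out, J minus NHsd after saline ran between -0.13 and 0.35 for H2-Aa, -0.10 and 0.12 for H2-Ab1, -0.08 and 0.31 for H2-Eb1, -0.37 and 0.18 for H2-DMa (below log2 4 on all saline arrays), and -0.26 and 0.18 for Cd74. For Cd74 it ran between -0.40 and 0.20 after cerulein and between -0.38 and 0.21 for the difference of the effect. H2-Aa, H2-Ab1, H2-Eb1 and H2-DMa kept a positive sign in both of these, at 0.07 to 0.89 after cerulein and 0.08 to 0.97 for the difference of the effect, and none was called. Averaging the probe sets of H2-Ab1 turned its saline difference of -0.01 to 0.05. Equal medians and quantile normalisation reversed H2-DMb2 (-0.12 and -0.23), Esam (-0.21 in both), Rfxap (-0.21 and -0.22), Nfyb (-0.19 and -0.20), Crebbp (-0.04 and -0.02) and Mzb1 (-0.10 in both), since the deposited median gene is higher after cerulein.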
